A study of Homo sapiens with 9 samples.

Results

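CXCR4, ACKR3, CXCR5, CCR7 and CCR6 are chemokine receptors that steer B cells between blood, bone marrow and lymphoid tissue. These 5 receptors were listed by name out of 58243 gene identifiers, and 3 of them (CXCR4, ACKR3 and CXCR5) had enough counts to be tested among 15163 genes. CCR7 and CCR6 did not, and they are given by their counts.

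The RNA came from DOHH2, a human cell line established from a transformed follicular lymphoma. The 3 groups held 3 libraries each: DOHH2 cells in culture at day 0, and human CD20+ cells sorted at day 19 and at day 40 after grafting from femurs of the immunodeficient RAGγc host mice. The femur cells had passed through enzyme digestion, depletion of mouse Cd45+ and Ter119+ cells and sorting. The sources used here describe no such steps for the cultured cells, so growth in the femur and this handling cannot be told apart in any comparison with culture.

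Chemokine receptors are G protein-coupled receptors that turn a gradient of a secreted chemokine into directed movement. CXCR4 binds CXCL12, which stromal cells of the bone marrow make, and holds B cells and their precursors there. ACKR3 binds the same ligand without coupling to G proteins and removes it from the surroundings. CXCR5 draws B cells towards CXCL13 in lymphoid follicles, CCR7 towards CCL19 and CCL21 in T-cell zones, and CCR6 towards CCL20.

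Libraries held between 21071239 and 29456271 counts. Levels are given as CPM, a gene's counts scaled to a common library size after TMM, a correction for library composition. A gene was called higher or lower where its adjusted p in edgeR's quasi-likelihood test was under 0.05. At day 19, 52.8% of the 15163 genes were called against culture, 26.3% higher and 26.5% lower. At day 40 it was 46.6%, with 23.3% higher and 23.3% lower, and between the femur groups 4.68%, with 3.23% higher and 1.45% lower at day 40. The median log2 fold change of all genes was 0.01, 0.01 and 0. The labels name no cultures or animals behind the libraries, so p-values measure the spread between these libraries, which may be technical. The dates in the titles place the day 19 libraries 18, 19 and 19 days after the culture library of their period. They place the day 40 libraries 11, 26 and 39 days after it. Day 40 replicate 1 is thus dated before day 19 replicate 1 of its period. Day 40 replicates 1 and 2 cannot be 40 days from that culture. For the receptor fold changes and several counts of called genes, day 40 results are therefore also given without those 2 libraries where that changes them. For other single genes they are not given in that way, so their calls at day 40 can depend on those 2 libraries.

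All 6 B-cell markers were measured, with summed levels of 3503 to 4459 CPM in culture, 2276 to 2488 CPM at day 19 and 2691 to 2905 CPM at day 40. S100A8 and S100A9 of the 8 myeloid markers had 0 counts in every library, as had HBB and HBA2 of the erythroid list, and CDH5, KDR, EMCN and TEK of the endothelial list. The myeloid sum was at most 6.29 CPM and the erythroid sum at most 0.369 CPM. The endothelial sum was 4.42 to 7.6 CPM in culture, 1.61 to 3.12 CPM at day 19 and 3.28 to 4.24 CPM at day 40. All these markers are human genes, so they cannot show how many mouse host cells remained. COL1A2, COL3A1, LUM and POSTN, 4 of the 8 stromal markers, were at 0 counts throughout, and the stromal sum was 1.16 to 1.44 CPM in culture, 4.97 to 7.54 CPM at day 19 and 4.34 to 5.29 CPM at day 40. The T-cell markers, of which CD2 had 0 counts, summed to 55.2 to 62.9 CPM in culture, 95.9 to 111 CPM at day 19 and 59.7 to 72.9 CPM at day 40.

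CXCR4 was the most abundant of the 5 receptors in every group and rose in the femur. CXCR4 (ENSG00000121966) lies on the minus strand of chr2:136114349-136118165 in hg38. Its promoter is shown because CXCR4 had the largest rise at day 19 among CXCR4, ACKR3 and CXCR5 and because NRF1, a factor known to act at this promoter, was itself measured. The stretch is chr2:136118166-136118399 on the minus strand of GRCh38.p14, from RefSeq, and it ends just before the gene's first annotated base in GENCODE 29. Capitals mark the NRF1 motif and the TATA box.
CXCR4 promoter: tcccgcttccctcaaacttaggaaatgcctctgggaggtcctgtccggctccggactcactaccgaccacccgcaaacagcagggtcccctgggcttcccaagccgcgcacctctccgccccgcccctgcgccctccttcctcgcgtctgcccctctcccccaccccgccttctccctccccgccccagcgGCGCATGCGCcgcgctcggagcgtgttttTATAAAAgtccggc
The NRF1 motif GCGCATGCGC, searched on both strands, sits 59 to 50 bases before the RefSeq start. It is found in 0.795% of 35116 promoter windows of the same 234 bases in length. The TATA box TATAAAA, searched on the gene's strand, sits 30 to 24 bases before the start and is found in 2.52% of windows. The GC box GGGCGG, on both strands, had 3 matches here, a pair of them sharing 1 base, and occurs in 40.5% of windows. CCCACCC, a letter match for KLF factors on both strands, had 1 match and occurs in 16.9%. The stretch held no FOXO motif GTAAACA (2.78% of windows), octamer ATTTGCAT (1.58%) or ACGTG (17.3%), each searched on both strands. ACGTG is only a form of the hypoxia core. The form GCGTG was not searched, and the stretch holds it shortly before the TATA box. Its GC content was 68.4%, against a median of 57.7%.

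CXCR4 was at 117, 120.2 and 131 CPM in the culture libraries. It was at 611, 493 and 612 CPM at day 19 and at 469, 386 and 465 CPM at day 40. Every femur library lay above every culture library, and every day 19 library above every day 40 library. The group means were 123 ± 7.15, 572 ± 68.3 and 440.0 ± 47.1 CPM (SD, n = 3 libraries each).

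Against culture, CXCR4 rose by 2.22 on the log2 scale at day 19 (SE 0.10, 4.66-fold, edgeR adjusted p = 1.03e-08). At day 40 the rise was 1.84 (SE 0.10, 3.59-fold, edgeR adjusted p = 7.08e-08). Of the 15163 genes, 505 (3.33%) had a larger log2 fold change upwards at day 19, and 637 (4.2%) at day 40. Both comparisons used the same culture libraries. From day 19 to day 40 CXCR4 fell by 0.38 on the log2 scale (SE 0.10, edgeR adjusted p = 0.0496). That call was kept in 9 of 17 other settings. It was lost without culture replicate 1, day 19 replicate 1 or 3, or any of the day 40 libraries (adjusted p from 0.0668 to 0.22). Without day 40 replicates 1 and 2 the difference was -0.29 (adjusted p = 0.61). Per kilobase of exon, CXCR4 ranked at 724 of 15105 genes in culture, at 100 at day 19 and at 127 at day 40. In bulk RNA, fewer cells with a transcript and less of it per cell cannot be told apart.

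**Figure D1:**
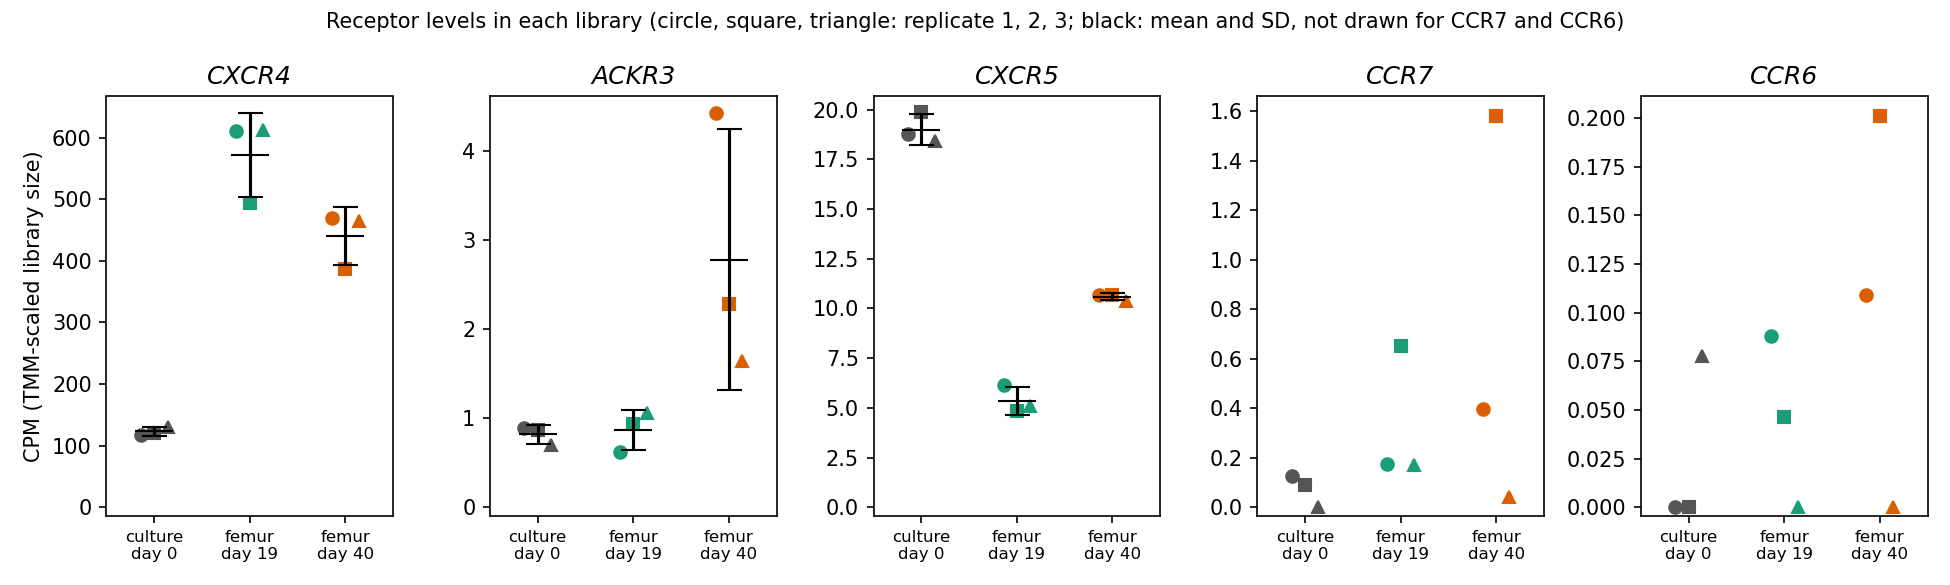
Level of each receptor in CPM (vertical axis, linear, scaled separately for each gene) in the 3 libraries of culture day 0, femur day 19 and femur day 40, with the mean and SD in black for the 3 tested receptors. CXCR4 is lowest and CXCR5 highest in culture, while ACKR3, CCR7 and CCR6 have their highest library at day 40.

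ACKR3 (ENSG00000144476, plus strand, chr2:236567787-236582358 in hg38), the scavenging receptor for CXCL12, was low in every library. It was higher than in culture at day 40 and not detectably so at day 19. Its levels were 0.891, 0.865 and 0.698 CPM in culture, from 21, 19 and 18 counts. They were 0.616, 0.931 and 1.06 CPM at day 19, from 14, 20 and 25 counts. At day 40 they were 4.42, 2.28 and 1.64 CPM, from 122, 68 and 40 counts. The day 40 libraries all lay above the other 6, and replicate 1 lay farthest up. Culture and day 19 overlapped.

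ACKR3 differed from culture by 0.09 on the log2 scale at day 19 (SE 0.41, edgeR adjusted p = 0.87). At day 40 it rose by 1.77 (SE 0.37, 3.4-fold, edgeR adjusted p = 0.00197). It also rose from day 19 to day 40, by 1.68 (SE 0.37, edgeR adjusted p = 0.0208). Without day 40 replicate 1 the rise over culture was 1.26 (adjusted p = 0.00752), and the difference from day 19 was 1.18 (adjusted p = 0.075). The latter call was also lost without any of the day 19 libraries (1.48 to 1.85, adjusted p from 0.062 to 0.0894). Without day 40 replicates 1 and 2 the differences were 0.99 (adjusted p = 0.0905) and 0.92 (adjusted p = 0.567). Day 40 replicate 1 also had the highest summed level of 16 early response and heat shock genes without HSP90AA1, at 1854 CPM against 741 and 862 CPM in the other day 40 libraries. The part of that in the ACKR3 result was not tested.

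CXCR5, the receptor for CXCL13, moved opposite to CXCR4. CXCR5 (ENSG00000160683, plus strand, chr11:118883766-118897799 in hg38) was at 18.8, 19.9 and 18.4 CPM in culture. It was at 6.16, 4.84 and 5.07 CPM at day 19 and at 10.7, 10.7 and 10.4 CPM at day 40. The 3 groups did not overlap: culture was highest, day 19 lowest and day 40 between them.

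Against culture CXCR5 fell by 1.83 on the log2 scale at day 19 (SE 0.12, 3.54-fold lower, edgeR adjusted p = 1.24e-07). At day 40 it fell by 0.84 (SE 0.11, 1.79-fold lower, edgeR adjusted p = 7.81e-05). From day 19 to day 40 it rose by 0.98 (SE 0.12, edgeR adjusted p = 0.000617). Of all genes, 1.96% had a larger fall at day 19 and 5.06% at day 40. CXCR5 shares 3925 of its 4431 exonic bases (88.6%) with BCL9L on the opposite strand, and the strand setting of the counting is not given in the sources used here, so its counts are uncertain. BCL9L itself, a coactivator of beta-catenin, was at 43.2, 35.5 and 40.4 CPM in culture, at 35.8, 34.7 and 33.5 CPM at day 19 and at 48.5, 37.7 and 38.5 CPM at day 40. It was not called in any comparison, with log2 fold changes of -0.19 (adjusted p = 0.136), 0.07 (adjusted p = 0.628) and 0.26 (adjusted p = 0.22).

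CXCR4 and CXCR5 moved in opposite directions, so their count ratio within each library differed more against culture than either gene alone. It was 6.24, 6.04 and 7.12 in culture, 99.2, 102 and 121 at day 19, and 44.1, 36.1 and 44.7 at day 40. No library of one group overlapped another. The log2 ratio at day 19 was 4.05 above culture (16.6-fold), and at day 40 it was 2.68 above culture (6.42-fold). An exact two-sided permutation test gave p = 0.1 for each of the 3 comparisons of groups, also after adjustment over the 3, and 0.1 is the smallest p that 3 against 3 libraries allow. Both genes already separated the groups in opposite directions, so this p was fixed beforehand and adds no support. The limit that BCL9L sets on CXCR5 counts holds for the ratio too. Day 40 lay below day 19 by a log2 ratio of -1.37.

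**Figure D2:**
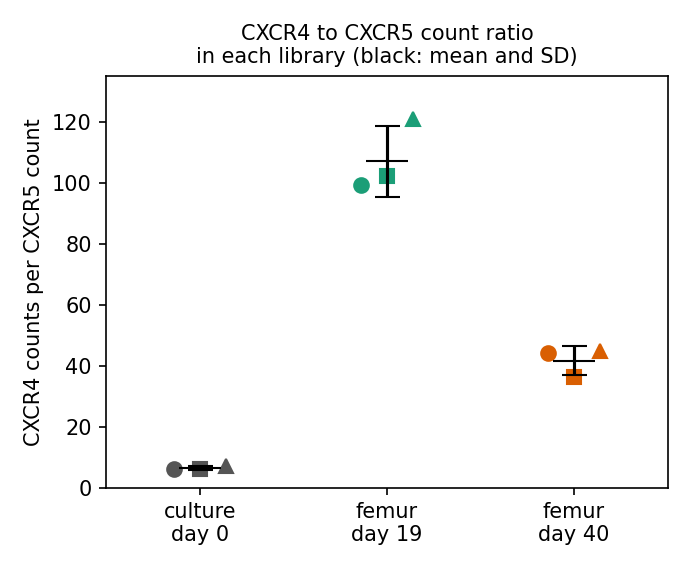
CXCR4 counts per CXCR5 count (vertical axis, linear, from 0) in each library of culture day 0, femur day 19 and femur day 40, with the mean and SD in black. The culture libraries sit between 6.04 and 7.12, below every femur library, and the day 19 libraries lie above the day 40 libraries.

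CCR7 (ENSG00000126353, minus strand, chr17:40553769-40565472 in hg38) gave 3, 2 and 0 counts in culture, 4, 14 and 4 at day 19, and 11, 47 and 1 at day 40. One library, day 40 replicate 2, held 47 of the 59 counts of its group, and the day 40 libraries overlapped both other groups. The summed counts, scaled for library size, stood 4.62-fold higher at day 19 than in culture (95% counting interval 1.71 to 15.6) and 10.3-fold higher at day 40 (4.17 to 32.8). Without day 40 replicate 2 the day 40 ratio was 3.29 (1.08 to 11.9). Without day 40 replicates 1 and 2, which leaves 1 count at day 40, the direction turned, with an edgeR log2 fold change of -0.72 against culture (adjusted p = 0.806) and -2.84 against day 19 (adjusted p = 0.707). These intervals cover counting error only. With no filter on low counts edgeR gave adjusted p = 0.0113 at day 19 and 2.67e-06 at day 40. DESeq2 gave adjusted p = 0.128 and 0.018. Some edgeR fits with a single library left out kept CCR7 in the filter. There it was not called at day 19 (adjusted p from 0.0944 to 0.371). At day 40 its call was lost without any of the culture libraries (adjusted p from 0.0574 to 0.0993) and otherwise kept (0.00635 to 0.0433).

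CCR6 (ENSG00000112486, plus strand, chr6:167111807-167139696 in hg38) gave 0, 0 and 2 counts in culture, 2, 1 and 0 at day 19, and 3, 6 and 0 at day 40. The groups overlapped, and no difference was detectable with these few counts. The ratio of day 19 to culture was 1.58 (95% counting interval 0.181 to 18.9) and that of day 40 to culture 3.92 (0.812 to 37.3). Of its 4346 exonic bases, 3008 are shared with ENSG00000272980 on the same strand, so its counts are uncertain.

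Per kilobase of exon, the order of mean levels was CXCR4, CXCR5, ACKR3, CCR7 and CCR6 in all 3 groups. The means in CPM per kilobase were 55.2, 4.29 and 0.362 for the first 3 in culture, 257, 1.21 and 0.384 at day 19, and 198, 2.39 and 1.23 at day 40. The lowest library of each of these genes lay above the highest of the next. CCR7 and CCR6 did not differ beyond their spread in culture or at day 40. The lengths used include the exonic bases that CXCR5 and CCR6 share with other genes.

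Of the 3 tested receptors, 2 were called at day 19 (CXCR4 higher, CXCR5 lower), against the 52.8% of all genes. All 3 were called at day 40 (CXCR4 and ACKR3 higher, CXCR5 lower), against 46.6%. All 3 were called between the femur groups, against 4.68%: ACKR3 and CXCR5 higher at day 40 (3.23% of all genes) and CXCR4 lower (1.45%). Of these, the CXCR4 call was kept in 9 and the ACKR3 call in 13 of 17 other settings.

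**Figure D3:**
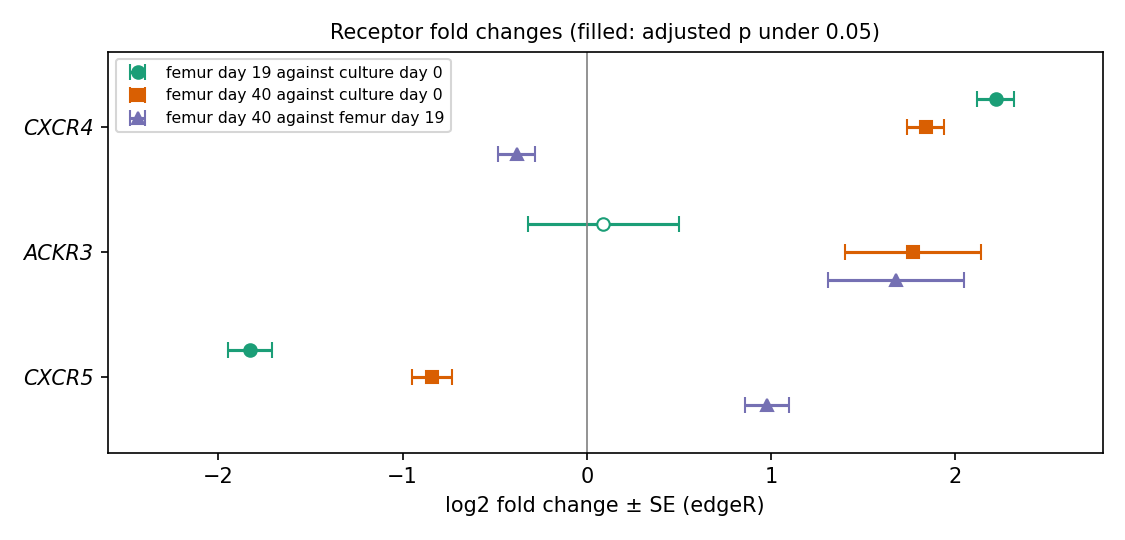
Log2 fold changes with their SE (horizontal axis) of the 3 tested receptors in the 3 comparisons of groups, with filled symbols where the adjusted p was under 0.05. ACKR3 at day 19 is the only open symbol, and CXCR4 and CXCR5 lie on opposite sides of 0 in each comparison.

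Few other chemokine receptors had enough counts to be tested. Of 19, 4 had 0 counts in all libraries, 14 had under 50 counts in all 9 together, and 4 were tested. Of these 4, CCR1, CCRL2 and CCR10 passed the filter on low counts through femur libraries, so that a higher level there was largely set by the filter. CCR1, a receptor for inflammatory CC chemokines, gave 0, 2 and 1 counts in culture, 16, 10 and 17 at day 19, and 49, 32 and 22 at day 40. Its ratio to culture was 15.1 (95% counting interval 4.82 to 75.9, edgeR adjusted p = 0.000479) at day 19 and 29.9 (9.96 to 147, adjusted p = 5.25e-05) at day 40. CCRL2, which binds chemerin and does not signal, gave 0 counts in culture, 11, 14 and 15 at day 19, and 28, 35 and 20 at day 40. With the culture group set at its limit of 3 counts in all, CCRL2 was at least 14-fold higher at day 19 and at least 24.1-fold higher at day 40 (adjusted p = 6.34e-05 and 2.09e-05). For both genes, every femur library lay above every culture library. Given the filter, neither this separation nor the p-values are separate support for a rise.

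ACKR4, a scavenger of the CCR7 ligands, was at 4.37, 5.51 and 4.5 CPM in culture, 5.72, 6.71 and 3.97 CPM at day 19, and 8.88, 11.4 and 7.09 CPM at day 40. It was called higher than in culture at day 40, by 0.93 (SE 0.22, edgeR adjusted p = 0.00398), and differed by 0.19 at day 19 (adjusted p = 0.498). The step from day 19 to day 40 was 0.74 (adjusted p = 0.0759). CCR10, the skin and mucosa receptor for CCL27 and CCL28, had means of 0.449 CPM in culture, 1.25 CPM at day 19 and 0.859 CPM at day 40. It was called at day 19 (1.5, adjusted p = 0.0162), with the limit of the filter given above. At day 40 CCR10 had a log2 fold change of 0.95 (adjusted p = 0.12). ACKR4 shares exonic bases with ACAD11, and CCR10 with CNTNAP1, on the opposite strand.

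Transcripts of the ligands of the 5 receptors gave few or no counts. CXCL12, CCL19, CCL21 and CCL20 had 0 counts in all 9 libraries, CXCL11 had 1 count and CXCL13 had 2. MIF, a cytokine that also binds CXCR4, was the only ligand tested and was not called, with log2 fold changes of 0.33 at day 19 (adjusted p = 0.345) and -0.28 at day 40 (adjusted p = 0.438). Of its 1109 exonic bases, 1044 are shared with other genes, so the low level of MIF is uncertain. Of 14 other chemokines 3 were tested. CCL28, a ligand of CCR10, was at 4.92, 4.87 and 2.83 CPM in culture, 8.79, 9.13 and 7.02 CPM at day 19, and 6.88, 7.51 and 6.72 CPM at day 40. All femur libraries lay above all culture libraries, and the rises were 0.99 (SE 0.20, adjusted p = 0.00143) and 0.75 (SE 0.20, adjusted p = 0.00944).

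Heterotrimeric G proteins carry the signal from the receptors. Of 16 tested, 2 were higher and 5 lower at day 19, and 2 higher and 4 lower at day 40, with medians of -0.1 and -0.09. The called members together lie below the shares of all genes called, 52.8% and 46.6%, and the higher calls at day 40 ranged from 0 to 3 over 17 other settings. GNG11, a gamma subunit, was lower by the most of those named, with means of 6.2 ± 2.0 CPM in culture, 1.24 ± 0.312 CPM at day 19 and 2.87 ± 0.826 CPM at day 40 (SD, n = 3). GNG5, another gamma subunit, changed by -0.68 and -0.55, and GNAI3, an inhibitory alpha subunit through which CXCR4 signals, by -0.39 and -0.22. GNG7 was higher, by 0.74 and 0.41.

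The kinases and arrestins that silence activated receptors moved in both directions. Of 6 tested, 3 were higher and 3 lower at day 19, and 3 higher and 2 lower at day 40 (medians 0.03 and -0.02), against 52.8% and 46.6% of all genes called in either direction. GRK2, which phosphorylates active receptors, was at 567, 604 and 587 CPM in culture, 796, 827 and 828 CPM at day 19, and 629.8, 729 and 725 CPM at day 40. Its log2 fold changes were 0.48 (SE 0.07, edgeR adjusted p = 0.000157) and 0.24 (SE 0.07, adjusted p = 0.0153). GRK5 was higher by 0.86 and 0.91, and ARRB2, the arrestin that binds phosphorylated receptors, by 0.45 and 0.36. GRK6 was lower, at -0.57 and -0.38.

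Of 12 tested genes of receptor ubiquitination and sorting to lysosomes, 4 were higher and 3 lower at day 19, and 3 higher and 4 lower at day 40, against 52.8% and 46.6% of all genes called. ITCH, the ubiquitin ligase known to direct CXCR4 to degradation, was among those higher at both times. DTX3L, a ligase that partners PARP9 and is known to limit that activity of ITCH, was at 0.806, 0.956 and 0.31 CPM in culture, 27.8, 36.7 and 15.8 CPM at day 19, and 38.4, 40.3 and 19.5 CPM at day 40. Replicate 3 was lowest in each group, and every femur library lay above every culture library. The rises were 5.29 (SE 0.45, edgeR adjusted p = 1.41e-06) and 5.59 (SE 0.45, adjusted p = 1.51e-06). Culture gave 19, 21 and 8 counts, so DTX3L passed the filter on low counts through femur libraries, which favours a higher level there. HGS, an endosomal sorting protein, was higher by 0.56 and 0.41. NEDD4, a ligase related to ITCH, changed by -0.93 and -0.92, and USP14, a deubiquitinase reported to act on CXCR4, by -0.40 and -0.38.

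RGS proteins switch off the G proteins that chemokine receptors activate. All 9 were tested, with 3 higher and 3 lower at day 19, and 4 higher and 1 lower at day 40 (medians -0.33 and -0.17), against 52.8% and 46.6% of all genes. RGS1, a B-cell regulator of the response to CXCL12, was at 1.87, 4.74 and 3.8 CPM in culture, 6.73, 4.84 and 7.74 CPM at day 19, and 32.8, 11.4 and 5.86 CPM at day 40. It was called at day 40 (2.27, SE 0.52, adjusted p = 0.0037) and not at day 19 (0.90, SE 0.54, adjusted p = 0.178). RGS2 rose by 1.66 and 2.24 and RGS16 by 0.83 and 0.75.

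Among 31 tested effectors of migration, 9 were higher and 15 lower at day 19, and 8 higher and 13 lower at day 40, with a median of -0.13 both times, against 52.8% and 46.6% of all genes called. PLCB2, the phospholipase that G protein beta-gamma subunits activate, was at 3.86, 4.6 and 4.53 CPM in culture, 21.8, 19.8 and 22.7 CPM at day 19, and 25, 23.3 and 23.5 CPM at day 40. It rose by 2.30 (SE 0.11, edgeR adjusted p = 1.08e-08) and 2.46 (SE 0.11, adjusted p = 1.27e-08). RAPGEF1, an exchange factor for RAP1, rose by 1.33 and 1.01, and PIK3CD, the leukocyte PI3K catalytic subunit, by 1.01 and 0.65. ELMO1, which with DOCK2 activates RAC, changed by -1.20 and -1.37. Between the femur groups, 1 effector was higher at day 40 (VAV1) and 3 lower (PIK3CD, RAPGEF1 and APBB1IP).

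All 10 other receptors that position B cells by lipids and similar cues were called in both comparisons with culture, 5 higher and 5 lower each time, where 52.8% and 46.6% of all genes were called. S1PR1, which guides exit from lymphoid tissue and marrow, was at 0.594, 0.455 and 1.98 CPM in culture, 12.8, 11.3 and 10.8 CPM at day 19, and 22.1, 10.7 and 10.3 CPM at day 40. It rose by 3.48 (SE 0.43, edgeR adjusted p = 3.27e-05) and 3.79 (SE 0.43, adjusted p = 2.44e-05). S1PR2, which confines germinal centre B cells, was at 284, 246 and 284 CPM in culture, 79.5, 84.7 and 71.7 CPM at day 19, and 118, 95.1 and 103 CPM at day 40. It changed by -1.79 (SE 0.10, adjusted p = 2.5e-08) and -1.36 (SE 0.09, adjusted p = 3.86e-07), and rose by 0.42 from day 19 to day 40 (adjusted p = 0.0233). P2RY8, another germinal centre confinement receptor, changed by -1.16 and -1.10, and P2RY10 by 1.84 and 1.75. The 5 receptors called lower at day 40 became 2 without day 40 replicate 1, and 3 with scaling to total counts alone, without culture replicate 2 or without day 40 replicate 3.

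Of 8 tested transcription factors linked to these receptors, 3 were higher (KLF2, HIF1A and NRF1) and 2 lower (FOXO1 and POU2AF1) at both times, against 52.8% and 46.6% of all genes called. KLF2, which drives S1PR1 in lymphocytes, was at 0.17, 0.455 and 0.155 CPM in culture, 51.2, 49.1 and 50.5 CPM at day 19, and 72.4, 43.6 and 37.1 CPM at day 40. It rose by 7.61 (SE 0.36, edgeR adjusted p = 1.07e-08) and 7.63 (SE 0.36, adjusted p = 1.92e-08). KLF2 gave 4, 10 and 4 counts in culture, so it passed the filter on low counts through femur libraries. That filter favours a higher level there, and the size of the rise rests on these few culture counts. NRF1, named here for the motif printed above, was at 35.2, 36.4 and 37.0 CPM in culture, 43.4, 47.1 and 47.4 CPM at day 19, and 40.5, 42.0 and 42.5 CPM at day 40. Its rises were 0.34 (SE 0.07, adjusted p = 0.00101) and 0.20 (SE 0.07, adjusted p = 0.0265). HIF1A, the hypoxia factor, rose by 0.49 and 0.23 and then fell by 0.26 from day 19 to day 40 (adjusted p = 0.027). FOXO1 was lower by -0.87 and -0.34, and rose by 0.52 between the femur groups (adjusted p = 0.0017). POU2AF1, the B-cell octamer coactivator, changed by -0.66 and -0.48.

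Without day 40 replicates 1 and 2, fewer members of these lists were called against culture at day 40. The higher calls went from 2 to 0 for the G proteins, from 4 to 2 for the RGS regulators and from 3 to 1 for the transcription factors. The lower calls went from 4 to 1 for the G proteins, from 2 to 1 for the kinases, from 4 to 2 for ubiquitination and sorting and from 5 to 2 for the other positioning receptors. Between the femur groups, over 17 other settings, the effectors called ranged from 0 to 4 higher and from 1 to 4 lower. The positioning receptors called higher ranged from 0 to 3, and the transcription factors called lower, here HIF1A, from 0 to 1.

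**Figure D4:**
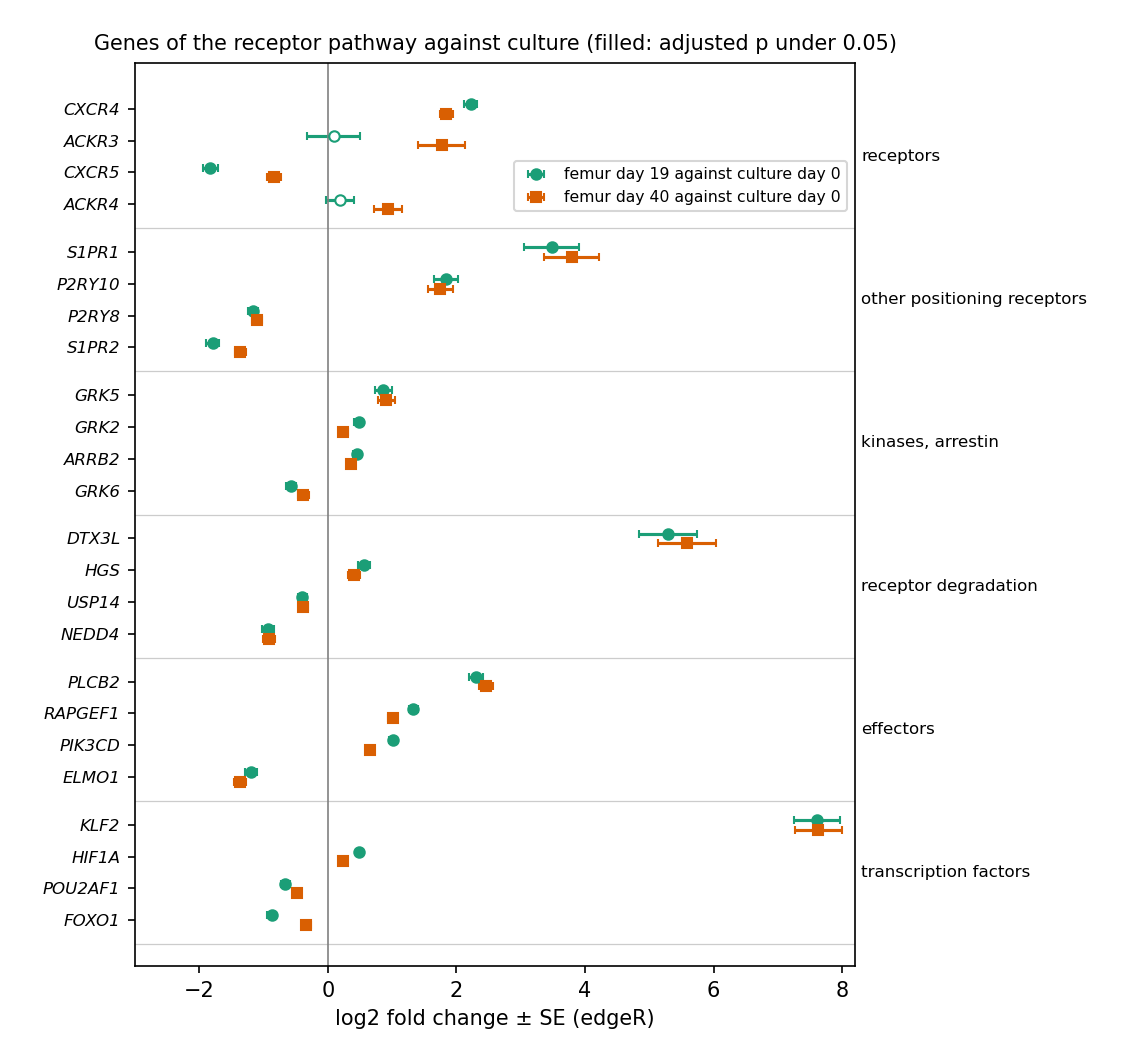
Log2 fold changes against culture with their SE (horizontal axis) at day 19 and day 40 for 4 chemokine receptors, other positioning receptors, kinases with an arrestin, receptor degradation, effectors and transcription factors (G proteins and RGS regulators are not drawn), with filled symbols where the adjusted p was under 0.05. Of the genes drawn, KLF2 and DTX3L lie farthest to the right, and S1PR2 and CXCR5 farthest to the left at day 19. KLF2 and DTX3L passed the filter on low counts through femur libraries.

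Many but not all genes of early response and heat shock, which can change during tissue handling, were higher in the femur groups. Of 15 tested, 9 were higher at day 19 and 11 at day 40, with medians of 2.03 and 2.22, where 26.3% and 23.3% of all genes were higher. FOSB rose by 3.53 and 3.59, DUSP1 by 3.15 and 3.14, and NR4A1 by 2.10 and 2.22. The calls at day 19 held no heat shock gene. HSP90AA1 changed by -0.31 at both times and IER2 by -0.21 at day 19, and no listed gene was called lower. The part of these genes in the receptor results against culture was not tested.

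Several named genes share exonic bases with a gene on the opposite strand, and their counts carry the limit given for CXCR5: DTX3L with PARP9, PIK3CD with CLSTN1, HGS with ARL16, GRK6 with F12, GNG5 with SPATA1, GNAI3 with GNAT2, USP14 with THOC1, and PLCB2, ELMO1, HIF1A, NR4A1, POU2AF1 and MIF with antisense genes. On the same strand, S1PR2 shares bases with DNMT1, FOXO1 with LINC00598, and MIF with ENSG00000251357. GNAI3 also shares same-strand bases with AMPD2, GNG5 with ENSG00000285851, HIF1A with ENSG00000258964 and NRF1 with RNA5SP244. Knowing the strand would not separate these. Of the 1109 exonic bases of MIF, 1044 are shared with other genes, so its counts are uncertain.

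The genes whose levels ran most like those of a receptor were read as a description over the same 9 libraries, which share their group structure. Likeness was Pearson's r of log2 CPM among genes with a mean of at least 5 CPM. For CXCR4 these were TOP3A (r = 0.995), ANKS3 (0.994), GBA2 (0.993), LIMD1 (0.993) and CDC14A (0.992), and 11% of the 9950 genes compared had r above 0.9. LIMD1 had means of 11.9, 51.6 and 38.7 CPM in culture, at day 19 and at day 40. For CXCR5 they included MYBPC2 (0.996), STIM1 (0.996), DNAJC10 (0.995) and GCHFR (0.993), and 8.38% had r above 0.9. MYBPC2 had means of 206, 30.6 and 96.4 CPM. For ACKR3 they were SLC4A1AP (0.957), NFKB2 (0.944), PLEKHG2 (0.913), CNNM4 (0.906) and GDAP2 (0.901), which were all of the 9951 genes compared with r above 0.9.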

How the data were processed

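The deposited values were whole-number counts of reads per gene. Per the submitters' processing notes, the tools were FastQC 0.11.5, STAR 2.5.2a, featureCounts 1.4.6 and DESeq2 1.40.1, with the hg38 genome. The sources used here do not give the annotation, the strand setting or how multi-mapping and mouse reads were treated.

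The day in each label set its group. GENCODE 29 named 57980 of 58243 identifiers and left 263 unnamed. In R 4.3.3, edgeR 4.0.16 was run on the counts with filterByExpr (15163 genes kept), TMM scaling and the two-sided quasi-likelihood F-test in 1 model over all 9 libraries. Benjamini-Hochberg adjustment ran over all tested genes, with a threshold of 0.05. Alternatives were total library size, DESeq2 size factors, no filter or a stricter one, DESeq2 1.42.0, limma 3.58.1 (voom), 2 groups only, a replicate block and leaving out each library. Promoters came from the RefSeq table, which held windows for CXCR4, CXCR5 and CCR6 of the 5 receptors.

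The receptors and gene lists were chosen with earlier results of these data known. Named were the receptors, up to 4 called genes per list with the smallest p and at least 5 CPM, every other chemokine receptor or ligand with at least 1 CPM in a group, and the 5 genes most like each tested receptor. ITCH, NRF1, VAV1, APBB1IP and BCL9L were named outside this rule, and some items that it covers are not reported here. The CCR7 ratio without day 40 replicate 2 and the fits without day 40 replicates 1 and 2 were added after seeing the data.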

Additional observations from a re-analysis of the deposited data

Results flagged for a closer look

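The 3 tested receptors differed between the femur groups by edgeR's test of that difference. From day 19 to day 40 the log2 difference was -0.38 for CXCR4 (adjusted p = 0.0496), 1.68 for ACKR3 (adjusted p = 0.0208) and 0.98 for CXCR5 (adjusted p = 0.000617). CXCR4 and CXCR5 thus each lay nearer their culture level at day 40 than at day 19, while ACKR3 lay farther from it. Of 17 other settings, the call was kept in 9 for CXCR4, in 13 for ACKR3 and in all 17 for CXCR5. Groups of 3 were too small for a check of single outlying libraries.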

How the results depend on the processing

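CXCR4 and CXCR5 kept their direction and call against culture in all 17 other settings, as did ACKR3 at day 40. With each library left out in turn, the log2 fold changes of CXCR4 ranged from 2.17 to 2.32 at day 19 and from 1.78 to 1.92 at day 40, and those of CXCR5 from -1.94 to -1.76 and from -0.88 to -0.82. Between the femur groups CXCR5 kept its call (0.92 to 1.09). CXCR4 (-0.47 to -0.30) lost it without culture replicate 1, without day 19 replicates 1 or 3 and without any of the day 40 libraries (adjusted p from 0.0668 to 0.22), with total library size (-0.38, adjusted p = 0.0641) and with limma voom (-0.38, adjusted p = 0.0536). ACKR3 (1.18 to 1.94) lost it without any of the day 19 libraries or without day 40 replicate 1 (adjusted p from 0.062 to 0.0894). The number of receptors called between the femur groups ranged from 1 to 3, and was 1 without day 19 replicates 1 or 3 or day 40 replicate 1. Without day 40 replicates 1 and 2 together it was 1, with CXCR4 at -0.29, ACKR3 at 0.92 and ACKR3 against culture at 0.99. That left 1 library, assumed to vary like the other groups. The 490 higher and 220 lower genes between the femur groups became 890 and 434 with no filter, 623 and 342 with DESeq2, 396 lower with 2 groups only, 755 and 438 without culture replicate 2, and 217 and 63 without day 19 replicate 3, and 82 and 17 without both day 40 libraries. Against culture, those 3527 higher and 3538 lower at day 40 then became 2035 and 2030. Leaving out other single femur libraries also cut the higher and lower calls between the femur groups. They were 220 and 65 without day 19 replicate 2. Without day 40 replicate 1 they were 282 and 99, and without day 40 replicate 2 they were 289 and 131. Scaling to total counts moved the median of all genes against culture to 0.1 and made 59.1% of calls at day 19 and 61.1% at day 40 upward, with the directions of the 3 receptors kept. The titles date the libraries into 3 periods but do not say that a period shares a batch. Deviations from the group means correlated at -0.05 to 0.31 within periods and at -0.20 to 0.09 between them. Within periods only culture replicate 2 with day 19 replicate 2 was negative (-0.05), while most pairs between periods were negative. Each group was centred on its own mean, so positive values within periods push those between periods down. The contrast is thus not a separate observation. An effect of the period was not tested, and the block was kept as an alternative. With the replicate block no receptor call changed (CXCR4 2.21 and 1.84, and -0.38 between femur groups, adjusted p = 0.0108), and 652 and 314 genes were called between the femur groups. Low counts limit CCR7 and CCR6, which did not pass the filter with all 9 libraries. For CCR6, the exonic bases shared on the same strand can limit the counts too.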

Other observations

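Day 40 replicate 1 had the highest level of the 9 libraries for several genes beside ACKR3. RGS1 was at 32.8 CPM there against 11.4 and 5.86 CPM in the other day 40 libraries, RGS2 at 76.2 against 23.5 and 21.0 CPM, S1PR1 at 22.1 against 10.7 and 10.3 CPM, and KLF2 at 72.4 against 43.6 and 37.1 CPM. Day 40 replicate 2 stood highest for CCR7, with 47 counts, and for CCR6, with 6. These libraries were picked out after their values were seen.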
